A study of Mus musculus with 16 samples.

Results

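Type 1 and cytotoxic lymphocyte genes were examined in bulk mRNA-Seq libraries of lung group 2 innate lymphoid cells (ILC2s). The set had 10 members of the 51912 genes in the count table: the cytokine gene *Ifng*, the transcription factor genes *Tbx21* and *Eomes*, the receptor genes *Ncr1* and *Klrb1c*, and the granule genes *Nkg7*, *Prf1*, *Gzma*, *Gzmb*, and *Gzmc*. The members were chosen by their measured values, since the summed level of such genes was higher with IL-7 alone than with IL-33. The contrast of IL-7 with IL-33 is therefore given below as a description without a test. Tests are given for genotype and for CGRP against NMU, contrasts that the choice did not use. The genotype tests within IL-7, within IL-33, and over all libraries still include libraries whose values the choice used. The difference between genotypes in the response to IL-33 was also tested, on the IL-7 and IL-33 libraries whose values the choice used. The measurements showed high *Gzma* and *Nkg7* with IL-7 alone, lower levels of *Gzmb* and *Klrb1c* there, and almost no signal for *Ifng*, *Tbx21*, *Eomes*, *Ncr1*, and *Gzmc* in any library.

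The lung ILC2s came from WT mice and from *Pac1-/-* mice, which lack the phosphatase PAC1 (gene *Dusp2*), and the study's methods give mice on a C57BL/6J background aged 6 to 8 weeks. The cells of each genotype were kept for 4 hours in 1 of 4 treatments, all of which contained IL-7. The first had IL-7 only, the second also had IL-33, and the last 2 had IL-33 with either of the neuropeptides CGRP and NMU added. The groups called CGRP and NMU below therefore contained IL-7 and IL-33 too. For the study's ILC2 cultures in general, the methods state 100 ng/mL for IL-7 and for IL-33 and 500 ng/mL for CGRP and for NMU. The methods also describe expansion of sorted ILC2s in IL-2 and IL-7, and do not say whether the sequenced cells were expanded. Before ILC2 sorting, lung cells were depleted of most NK cells, T cells, B cells, and myeloid cells with magnetic beads. Each of the 8 genotype and treatment combinations had 2 libraries, giving 16, and a library was made from about 500 cells. Nothing in the labels ties the replicates to separate animals, so P values measure the spread between libraries, which may be technical.

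ILC2s answer tissue alarm signals such as IL-33 with type 2 cytokines, under the transcription factor GATA3. The type 1 side of the lymphocyte family, NK cells and ILC1s, uses the T-box factors T-bet (*Tbx21*) and EOMES to make IFN-γ (*Ifng*), and NK cells kill target cells by releasing perforin (*Prf1*) and granzymes from granules. CGRP and NMU are neuropeptides with receptors on ILC2s, and IL-7 is a survival cytokine for innate lymphoid cells.

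The sequences just upstream of *Gzma*, *Nkg7*, and *Gzmb* are shown because these 3 granule genes carried most of the members' signal, and because RUNX and T-box factors are known regulators of cytotoxic genes. They are from RefSeq on GRCm38 (mm10), written 5′ to 3′ along the gene's strand, with the RUNX core motif TGTGGT or its reverse ACCACA and the T-box half-site GTGTGA or its reverse TCACAC in capitals.
Gzma, chr13:113100982-113101231, minus strand: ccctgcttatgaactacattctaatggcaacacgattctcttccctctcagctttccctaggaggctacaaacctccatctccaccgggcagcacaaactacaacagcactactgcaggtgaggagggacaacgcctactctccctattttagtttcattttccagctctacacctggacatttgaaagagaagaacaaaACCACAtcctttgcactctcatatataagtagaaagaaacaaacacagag
Nkg7, chr7:43436888-43437072, plus strand: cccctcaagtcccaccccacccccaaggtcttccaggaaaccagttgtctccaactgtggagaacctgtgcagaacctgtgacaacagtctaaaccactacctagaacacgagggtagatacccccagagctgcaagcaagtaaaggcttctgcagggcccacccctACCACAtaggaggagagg
Gzmb, chr14:56262335-56262584, minus strand: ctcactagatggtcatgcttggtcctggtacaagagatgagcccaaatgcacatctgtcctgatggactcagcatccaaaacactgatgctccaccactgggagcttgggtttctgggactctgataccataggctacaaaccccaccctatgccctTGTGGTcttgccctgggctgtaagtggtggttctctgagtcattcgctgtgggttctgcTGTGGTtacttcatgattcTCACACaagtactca

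The search covered the 250 bases before each RefSeq start on both strands, and the 2 motifs did not overlap in the windows printed. The *Nkg7* window is printed without its last 65 bases, which lie inside the annotated gene and hold its T-box half-site, and none is printed for *Klrb1c*, whose window lies inside the annotated gene. In *Gzma* the RUNX core began 50 bases before the start, and in *Nkg7* it began 83 bases before. *Gzmb* had the RUNX core at 93 and at 34 bases before the start and the T-box half-site at 15 bases. All 10 members matched a promoter entry. The RUNX core was present in 7 of the 10 (*Gzma*, *Nkg7*, *Gzmb*, *Gzmc*, *Prf1*, *Klrb1c*, and *Ncr1*), and in 14% of 32851 promoter windows of the same length. The T-box half-site was present in 3 members (*Nkg7*, *Gzmb*, and *Ncr1*), against 12.3% of all windows. *Ifng*, *Tbx21*, and *Eomes* held neither motif in this window. These matches describe letters only and do not show that a factor binds there.

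Each library held between 6764992 and 15963357 counts, and levels are given below as CPM (counts for every 1000000 counts in the library, with edgeR's TMM scaling), on which 3 counts equal 0.171 to 0.462 CPM depending on the library. A level under that value was treated as not detectable at this depth. *Dusp2* had 0 counts in the 8 *Pac1-/-* libraries but was counted in only 2 of 8 WT libraries, so it separates the genotypes in few of them. The ILC2 identity genes were present throughout: *Gata3* was at 495 to 1118 CPM, *Il1rl1* (the IL-33 receptor) at 516 to 1302 CPM, and *Rora* at 728 to 1802 CPM. In bulk libraries, fewer cells of a type and less RNA per cell cannot be told apart, which applies to every level below.

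*Gzma*, which encodes granzyme A, a serine protease of cytotoxic granules (chr13:113093825-113100981), had the highest level of the set. With IL-7 alone it was at 112 and 129.7 CPM in the WT libraries and at 222 and 214 CPM in the *Pac1-/-* libraries. Among the 12 libraries with IL-33, replicate 1 of *Pac1-/-* with IL-33 had 4.49 CPM (79 counts) and the other 11 had 0 counts. The IL-7 libraries thus lay far above all others, with no overlap. The mean with IL-7 was 169.5 ± 56.7 CPM (SD, n = 4, 2 of each genotype). That mean was 151-fold higher than the IL-33 mean, which rests on the single library with counts, at least 527-fold higher than with CGRP, and at least 502-fold higher than with NMU, the last 2 against the floor of 3 counts per library.

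*Nkg7*, which encodes a membrane protein of cytotoxic granules (chr7:43437073-43438249), had the next highest level and was detected in more libraries. With IL-7 alone it was at 56.7 and 58.0 CPM in WT and at 100.1 and 93.9 CPM in *Pac1-/-* ILC2s. With IL-33 it was at 11.3 and 16.8 CPM in WT and at 0 and 1.63 CPM in *Pac1-/-*. All 4 IL-7 libraries were above the other 12, whose highest value was 19.7 CPM. With CGRP it was at 19.7 and 17.3 CPM in WT and at 18.5 and 0 CPM in *Pac1-/-* libraries, and with NMU at 7.08 and 0 CPM in WT and at 0.0955 CPM (1 count) and 0 CPM in *Pac1-/-* libraries. The IL-7 mean of 77.2 ± 23.0 CPM (SD, n = 4) was 10.4-fold higher than with IL-33, 5.55-fold higher than with CGRP, and 43.0-fold higher than with NMU.

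*Gzmb*, which encodes granzyme B, a protease that triggers apoptosis in target cells (chr14:56258838-56262260), did not separate the treatments. With IL-7 alone it was at 5.33 and 9.71 CPM in WT and at 19.9 and 20.4 CPM in *Pac1-/-* libraries. Replicate 1 of *Pac1-/-* with IL-33 reached 20.02 CPM and replicate 2 of WT with CGRP reached 18.2 CPM, inside the IL-7 range. The other 10 libraries with IL-33 ranged from 0 to 6.30 CPM, and 6 of the 12 were at 0. The IL-7 mean of 13.8 ± 7.51 CPM (SD, n = 4) was 2.68-fold the IL-33 mean. Without replicate 1 of *Pac1-/-* with IL-33, the fitted log2 fold change of IL-33 over IL-7 moved from -2.68 to -5.82.

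*Prf1*, which encodes the pore-forming protein perforin (chr10:61297833-61304680), was near the detection limit. It had 68 counts (5.92 CPM) in replicate 1 of *Pac1-/-* with IL-7, 12 counts in replicate 2, and 5 and 0 counts in the WT libraries with IL-7. Elsewhere it had 13 and 5 counts in the *Pac1-/-* libraries with IL-33, 1 count in replicate 2 of WT with NMU, and 0 counts in 9 of 12 libraries. *Gzmc*, which encodes granzyme C (chr14:56231441-56234656), had 2 counts in 1 library and 0 in the other 15. A count of 0 allows up to 3 counts, so *Gzmc* was not detectable at this depth.

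*Klrb1c*, which encodes the NK cell receptor NK1.1 (chr6:128778485-128789215), was detected in 5 libraries. With IL-7 alone it was at 5.53 and 1.65 CPM in WT and at 8.89 and 15.1 CPM in *Pac1-/-* libraries. Of the 12 libraries with IL-33, replicate 1 of WT with CGRP had 4.36 CPM and the others had 0 counts. That library lay between the WT values with IL-7. The IL-7 mean of 7.79 ± 5.71 CPM (SD, n = 4) was at least 33.2-fold higher than with IL-33 and at least 23.1-fold higher than with NMU, both against the floor, and 7.16-fold higher than with CGRP. *Ncr1*, which encodes the activating NK cell receptor NKp46 (chr7:4337724-4345164), had 31 counts in replicate 1 of *Pac1-/-* with IL-7, 4 in replicate 1 of WT with NMU, 1 in replicate 2 of *Pac1-/-* with IL-33, and 0 elsewhere.

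The 2 transcription factors and the type 1 cytokine were at 0 in most libraries. *Tbx21* (chr11:97098071-97115331) had 0 counts in all 16 libraries. *Eomes* (chr9:118478212-118486132) had 29 counts in replicate 2 of WT with IL-7, 8 in replicate 2 of *Pac1-/-* with IL-7, and at most 6 in any library with IL-33. *Ifng* (chr10:118441046-118445892) had 19 counts in replicate 2 of WT with IL-7 and 0 in the other 15 libraries. Of the 5 libraries with *Gzma* counts, *Eomes* was above the floor in 2, *Ifng* in 1, and *Tbx21* in 0. Exons of *Ifng*, *Eomes*, and *Klrb1c* overlap those of another annotated gene (*Gm49751*, *Gm33460*, and *Gm44511*), so reads there are uncertain between the genes, while no member shared a stretch of at least 100 bases at 95% identity with any other gene's transcripts beyond these overlaps.

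**Figure D1:**
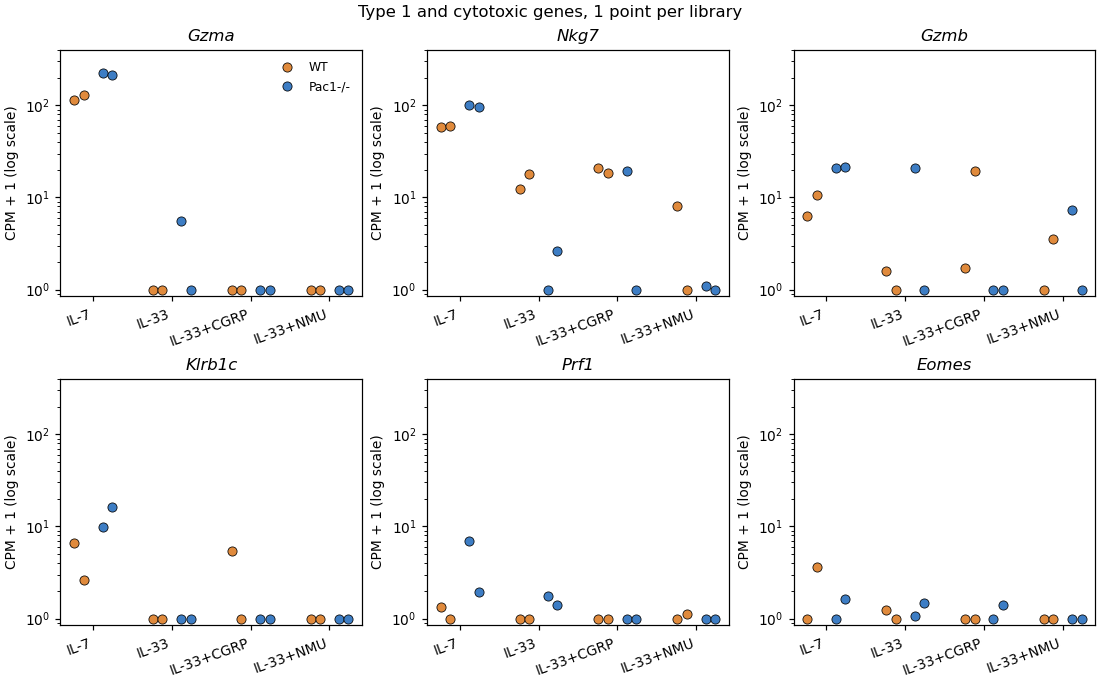
CPM + 1 on a log axis for 6 members, 1 point per library, by treatment and genotype (orange, WT; blue, *Pac1-/-*). *Gzma* and *Nkg7* with IL-7 lie above every other library, whereas *Gzmb* reaches 20.02 CPM in 1 IL-33 library and 18.2 CPM in 1 CGRP library.

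On a per-length scale, the order of levels with IL-7 alone was *Gzma* at 168.5 CPM per kb of exon (range 111 to 221), *Nkg7* at 84.4 (62.1 to 109.5), *Gzmb* at 9.63 (3.71 to 14.2), *Klrb1c* at 2.63 (0.557 to 5.10), *Prf1* at 0.697 (0 to 2.29), *Ncr1* at 0.439 (0 to 1.75), *Ifng* at 0.336 (0 to 1.34), and *Eomes* at 0.198 (0 to 0.640), with *Tbx21* and *Gzmc* at 0. *Gzma* did not overlap *Nkg7*, and *Nkg7* did not overlap *Gzmb*. From *Gzmb* downward, each gene's range overlapped that of the next. Summed over the 10 members, the level was 272 ± 93.4 CPM with IL-7, 14.2 ± 9.47 with IL-33, 19.9 ± 14.7 with CGRP, and 4.19 ± 3.51 with NMU (SD, n = 4 each). *Gzma* made up 62.3% of the IL-7 sum and *Nkg7* 28.4%, so the summed level is mainly that of these 2 genes. With IL-33 the largest shares were 52.3% for *Nkg7* and 36.3% for *Gzmb*, the latter mostly from 1 library.

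Over the whole table, 61 of 14979 genes that passed the expression filter (0.407%) had all 4 IL-7 libraries above all 12 others. Of the 5 members that passed it, *Gzma* and *Nkg7* were among them. The choice of members by this contrast fixes that in part, so it is not read as a result. Against the IL-33 group alone, the background of genes with all 4 IL-7 libraries above all 4 IL-33 libraries was 2.93%. In the fit of IL-33 over IL-7, the log2 fold changes were -7.74 (SE 1.21) for *Gzma*, -4.30 (SE 1.30) for *Nkg7*, -2.68 for *Gzmb*, -9.60 for *Klrb1c*, and -3.09 for *Prf1*. Those of *Gzma*, *Klrb1c*, and *Prf1* depend on the prior count, because at least 1 group was at or near 0. The value for *Gzma* ranged from -13.9 to -7.25 when 1 library was left out. The median of the 5 members was -4.30, beside 0.09 over all genes in that fit. Since this contrast chose the members, no calls are given for it. CGRP and NMU shared the IL-33 libraries as their baseline. Only *Gzmb* and *Nkg7* had enough counts there. *Nkg7* differed from IL-33 by a log2 fold change of 1.93 with CGRP and -2.69 with NMU, and *Gzmb* by -1.14 and 0.12, and the libraries of the groups overlapped in each case. Of these 4 values, 3 turned direction when 1 library was left out. *Nkg7* with CGRP was -0.71 without replicate 1 of *Pac1-/-* with CGRP. Without replicate 1 of *Pac1-/-* with IL-33, *Gzmb* was 4.42 with CGRP and 3.41 with NMU, and it was -2.09 with NMU without replicate 2 of WT with NMU. *Nkg7* with NMU stayed negative, between -5.69 without replicate 1 of WT with NMU and -1.28 without replicate 2 of *Pac1-/-* with IL-33.

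Other lymphocyte genes were examined beside the members from lists written for NK cells, ILC1s, T cells, and ILC2s. Of 27 NK and ILC1 receptor and adaptor genes, 18 to 20 were above the floor in each IL-7 library and 7 to 11 in each other library. *Klrc1*, which encodes the inhibitory receptor NKG2A, was at 69.9 to 112 CPM with IL-7, at 16.1 and 13.7 CPM in the WT libraries with CGRP, and at 0 in the other 10. *Klrd1*, which encodes its partner CD94, was at 40.7 to 70.0 CPM with IL-7, at 22.5 and 5.48 CPM in the same WT libraries with CGRP, and at 0 in the other 10. Among genes that passed the filter, *Klrk1*, *Klra9*, and *Cxcr3* also had all 4 IL-7 libraries above all others. Summed over the 13 *Klr* genes of the list, a grouping made after the values were seen, the level was 264 to 288 CPM with IL-7, 6.30 to 16.8 with IL-33, 9.79 to 69.8 with CGRP, and 0 to 12.9 with NMU. By contrast, the most abundant genes of this list did not follow the members. *Cxcr6*, a chemokine receptor for tissue retention, was at 2154 to 9066 CPM over the 16 libraries, and the adaptor gene *Hcst* and the receptor gene *Cd226* were also detected in all 16. *Ccl5*, a chemokine gene of activated lymphocytes, was at 336 to 546 CPM with IL-7 and at 7.29 to 163 CPM in the other 12 libraries. Of 6 type 1 chemokine genes, only *Ccl5* had all 4 IL-7 libraries above the other 12. The next genes of that list by mean CPM did not follow the members. *Ccl4* was at 0 with IL-7 and reached 121 CPM elsewhere, and *Cxcl10* was at 2.11 to 16.1 CPM with IL-7 and reached 76.7 CPM elsewhere.

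The remaining granule genes and the upstream signalling genes had another pattern. Of 18 genes for other granzymes, granule release, and death ligands, none had all 4 IL-7 libraries above the other 12. *Srgn*, which encodes the granule proteoglycan serglycin, was at 5391 to 18382 CPM, and *Serpinb9*, which encodes an inhibitor of granzyme B, was at 355 to 667 CPM across all 16 libraries. *Serpinb6b* was at 114 to 330 CPM. *Gzmf*, *Gzmg*, and *Gzmn* had 0 counts throughout. None of 16 genes for type 1 input and signalling had the IL-7 libraries above the rest either, and *Ifngr1*, *Jak2*, and *Il18rap* had mean levels of 841, 279.7, and 106 CPM over the 16 libraries.

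Some T cell genes were also higher with IL-7. The T cell marker sum was 1230 to 1338 CPM with IL-7, 398 to 958 with IL-33, 683 to 802 with CGRP, and 566 to 1243 with NMU, with 8 to 10 of 14 genes above the floor in each library. *Cd3d* was at 73.9 to 103 CPM with IL-7 and at most 27.5 CPM elsewhere, and *Cd3g* at 159.7 to 255 CPM with IL-7 and at most 158 CPM elsewhere. Of the T cell lineage genes, *Cd8a* had 0 counts in all 16 libraries and *Cd4*, *Cd5*, and *Cd6* did not exceed 0.506, 0.129, and 0.267 CPM. *Cd8b1* reached 5.66 CPM with IL-7 and 5.20 CPM elsewhere, with 0 counts in 9 of the 12 other libraries. *Cd3e* was at 1.19 to 8.97 CPM with IL-7 and at most 3.20 CPM elsewhere. *Trac* was counted in all 16 libraries, at 2.79 to 7.46 CPM with IL-7 and 0.3001 to 7.45 CPM elsewhere. *Tcrg-C1*, a T cell receptor gamma constant gene, was at 141.7 to 263 CPM with IL-7 and at 15.5 to 174 CPM elsewhere. *Trbc2* and *Trbc1* had means of 369 and 242 CPM. The ILC2 marker sum was 19868 to 21593 CPM with IL-7, 18003 to 23738 with IL-33, 22594 to 25683 with CGRP, and 27875 to 42375 with NMU. The part of other cells in the members' levels was not tested.

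B cell, myeloid, and lung structural markers did not follow the members. B cell markers summed to 7.06 to 43.0 CPM with IL-7 and reached 282 CPM with CGRP, led by *Cd79b*, *Ms4a1*, and *Cd79a*. Myeloid markers, among them *Lyz2*, *Cd68*, and *Cd14*, summed to 3.72 to 11.9 CPM with IL-7 and reached 124 CPM with NMU. Epithelial and stromal markers, among them *Pecam1*, *Epcam*, and *Sftpc*, summed to 29.1 to 83.1 CPM with IL-7 and reached 368 CPM with NMU. *Sftpc* was at 178 and 94.5 CPM in the WT libraries with NMU and at most 0.191 CPM elsewhere, and edgeR called it lower in *Pac1-/-* over all 16 libraries (adjusted P = 0.0407) and lower with CGRP than with NMU (adjusted P = 0.00329).

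**Figure D2:**
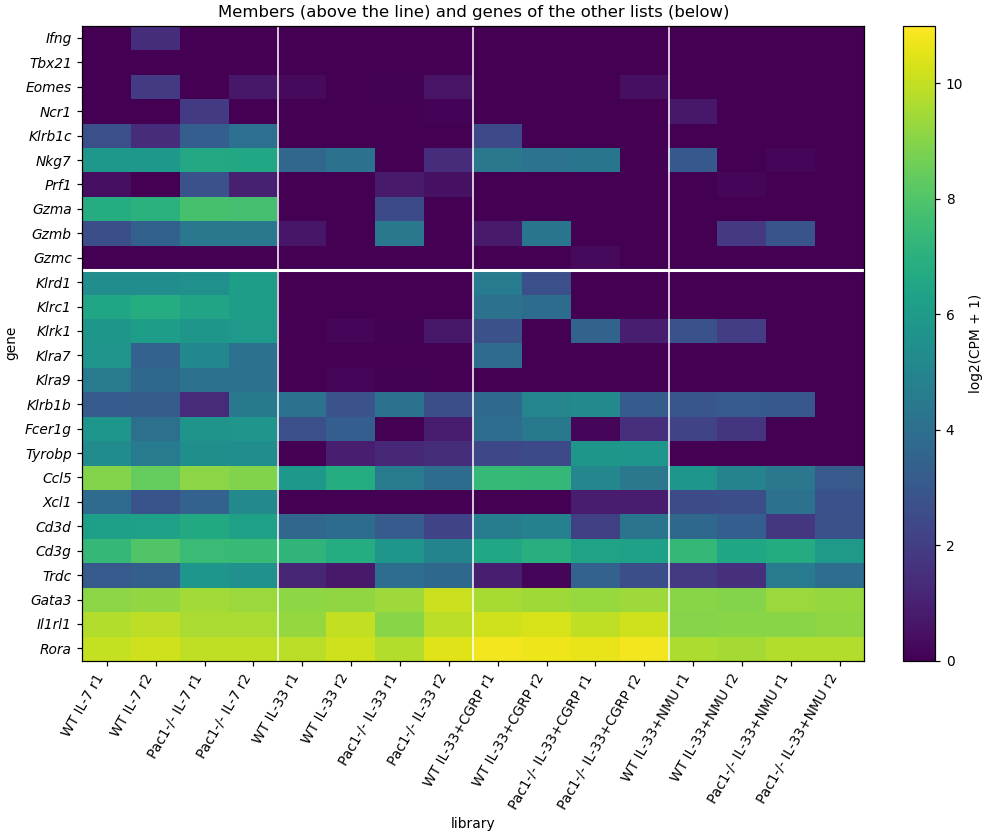
log2(CPM + 1) for the 10 members (above the white line) and 16 genes of the other lists (below it) in each of the 16 libraries. *Gzma*, *Nkg7*, *Klrd1*, *Klrc1*, and *Klrk1* are brightest in the 4 IL-7 columns, and *Gata3*, *Il1rl1*, and *Rora* are bright in every column.

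Of 8175 other genes averaging 5 CPM or more, the 5 whose profile over the 16 libraries was most like the mean log2 CPM of the members were *Sh2d1a* (Pearson r = 0.914), *Klrc1* (0.895), *Klrd1* (0.889), *Gm6213* (0.879), and *Klra7* (0.875). These are descriptions, since the libraries of a treatment share their conditions. *Sh2d1a*, which encodes the lymphocyte signalling adaptor SAP, was at 7.44 to 39.7 CPM with IL-7 and at 0 in the other 12 libraries. *Klra7*, a gene of the Ly49 receptor family, was at 9.99 to 52.9 CPM with IL-7, at 13.3 CPM in replicate 1 of WT with CGRP, and at 0 in the other 11. *Gm6213* was at 49.6 to 87.2 CPM with IL-7 and at most 44.6 CPM elsewhere.

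**Figure D3:**
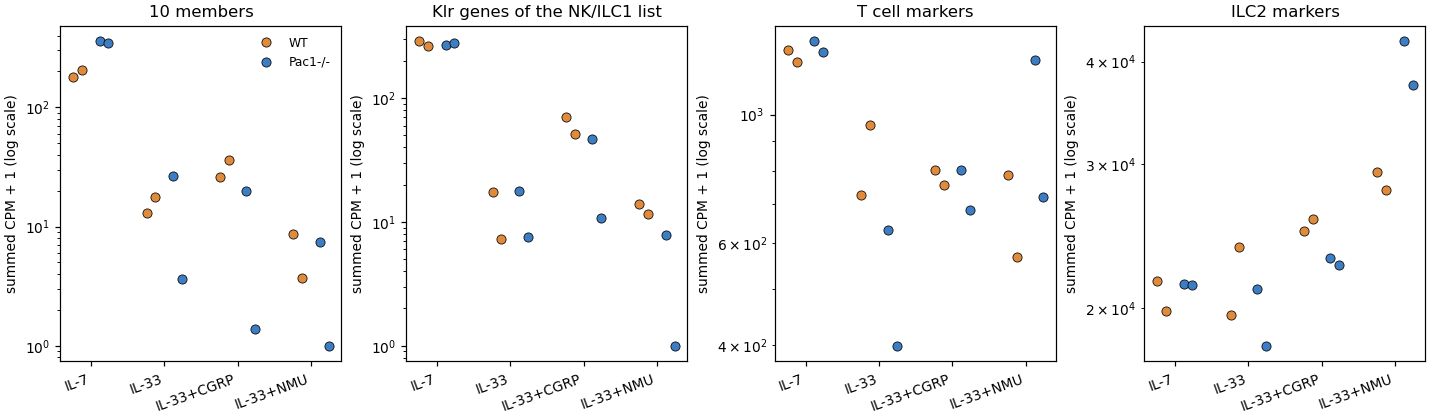
Summed CPM + 1 on a log axis for the 10 members, the 13 *Klr* genes, the T cell markers, and the ILC2 markers, 1 point per library, by treatment and genotype. With IL-7 the members sum to 180.0 and 203.5 CPM in WT and to 359 and 345 CPM in *Pac1-/-* libraries, whereas the *Klr* sums of the genotypes overlap.

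The effect of PAC1 loss was then tested within IL-7, the condition in which most members could be measured. *Gzma*, *Nkg7*, *Gzmb*, *Klrb1c*, and *Prf1* each had both *Pac1-/-* libraries above both WT libraries, an order seen in 17% of the 10912 genes tested. The mean in *Pac1-/-* over that in WT was 1.80-fold for *Gzma*, 1.69-fold for *Nkg7*, 2.68-fold for *Gzmb*, and 3.34-fold for *Klrb1c*. None of these passed the test. The log2 fold change of *Gzma* was 0.85 (SE 0.197, adjusted P = 0.726 by the quasi-likelihood test of edgeR, Benjamini-Hochberg adjusted over all genes). That of *Nkg7* was 0.76 (SE 0.262, adjusted P = 0.779 in the same edgeR test). The log2 fold changes of *Gzmb*, *Klrb1c*, and *Prf1* were 1.42 (SE 0.755), 1.74 (SE 1.13), and 4.25 (SE 2.27), the last on fewer than 100 counts in all IL-7 libraries.

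By edgeR 0 of the 5 members tested in IL-7 were called, where a call was a fold change above 1.5 with an adjusted P under 0.05, beside 0.00916% of all genes. At an unadjusted P under 0.05, 2 members (*Gzma* and *Nkg7*) were counted, beside 5.74% of all genes, and DESeq2 called 0 members and 0.715% of all genes. The median log2 fold change of the 5 members was 1.42, beside -0.00062 over all genes tested. The direction for each of the 5 remained positive when any 1 IL-7 library was left out, with *Gzma* between 0.76 and 0.97 and *Nkg7* between 0.72 and 0.80. The sizes for *Klrb1c* and *Prf1* moved more. *Klrb1c* ranged from 1.12 without replicate 2 of WT to 2.86 without replicate 1 of WT, and *Prf1* from 2.43 without replicate 1 of *Pac1-/-* to 8.34 without replicate 1 of WT. The 5 members are not independent measurements, since they were read from the same 4 libraries.

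Genes with the same treatment pattern did not all share this order. *Klrc1* had a log2 fold change of -0.35 (SE 0.288) for *Pac1-/-* against WT in IL-7, *Klrd1* of 0.49 (SE 0.382), *Klrk1* of -0.11 (SE 0.309), and *Ccl5* of 0.30 (SE 0.230). The 13 *Klr* genes summed to 288 and 264 CPM in WT and to 269 and 279 CPM in *Pac1-/-*. *Klra4*, a Ly49 receptor gene, was at 0 in both WT libraries and at 11.68 and 15.985 CPM in *Pac1-/-*, and it was called by DESeq2 (adjusted P = 0.000937) and not by edgeR (adjusted P = 0.726 in its quasi-likelihood test). *Trdc*, the T cell receptor delta constant gene, was at 7.73 and 9.16 CPM in WT and at 53.6 and 46.8 CPM in *Pac1-/-* libraries with IL-7. It was the one gene of all lists called higher in *Pac1-/-* ILC2s over the 16 libraries, with a log2 fold change of 3.28 (SE 0.449, adjusted P = 0.00396 by edgeR's quasi-likelihood test). In the other treatments *Trdc* was also higher in *Pac1-/-*, at 5.155 to 21.9 CPM against 0.110 to 2.62 CPM in WT. *Gzma* was at 0 there in all but 1 library. *Trdc* moved with genotype in the same IL-7 libraries as *Gzma*, and its part in the members' order was not tested.

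**Figure D4:**
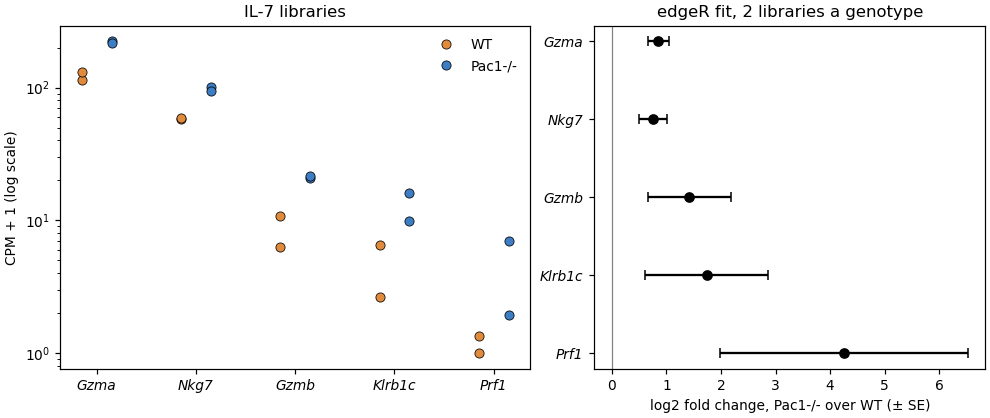
Left, CPM + 1 on a log axis for 5 members in the 4 IL-7 libraries (orange, WT; blue, *Pac1-/-*). Right, the edgeR log2 fold change of *Pac1-/-* over WT with its SE; the 5 values are positive, from 0.76 for *Nkg7* to 4.25 for *Prf1*, and none passed the adjusted threshold.

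With IL-33 the order of *Nkg7* was the opposite. Its values of 11.3 and 16.8 CPM in WT and 0 and 1.63 CPM in *Pac1-/-* libraries did not overlap, and 17.5% of 11448 genes had both *Pac1-/-* libraries below both WT libraries. The log2 fold change was -4.10 (SE 1.77, adjusted P = 0.983 by edgeR's quasi-likelihood test), and it was -10.58 without replicate 2 of *Pac1-/-*, which leaves that genotype at 0. *Nkg7* was the only member with enough counts for this test, so edgeR called 0 of 1, beside 0.00874% of all genes, with 1 of 1 at an unadjusted P under 0.05 beside 5.04% of all genes, and DESeq2 called 0 of 1, beside 0.568% of all genes. Without replicate 1 of WT with IL-33, *Gzmb* entered the test and was called, beside 0.78% of all genes, which left 1 member called and a single WT library assumed to vary as the others do. *Gzma* went the other way, since its 4.49 CPM was in 1 *Pac1-/-* library and both WT libraries were at 0.

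The difference between the genotypes in their response to IL-33 was fitted as an interaction. It uses the IL-7 and IL-33 libraries whose values chose the members, and *Nkg7* was the only one of the 5 members in it that also passed the filter with IL-33 alone. For *Nkg7* the response in *Pac1-/-* minus that in WT was -4.92 on the log2 scale (SE 1.498, adjusted P = 0.797 by edgeR's quasi-likelihood test), and DESeq2 called it (-4.92, adjusted P = 0.0213). The value was -11.28 without replicate 2 of *Pac1-/-* with IL-33. For *Gzma*, which had 0 counts in 3 of the 4 IL-33 libraries, the fitted value of 7.06 is a description. It was -0.86 without replicate 1 of *Pac1-/-* with IL-33, and so rests on 1 library. Of the 5 members edgeR called 0, beside 0% of 12980 genes, with 1 (*Nkg7*) at an unadjusted P under 0.05 beside 5.65% of all genes, whereas DESeq2 called 1 member and 0.493% of all genes. Without replicate 2 of *Pac1-/-* with IL-33, edgeR called 2 (*Gzma* and *Nkg7*), beside 0.0128% of all genes. With no expression filter it called the same 2, beside 0.0748% of all genes. The call of *Gzma* in both is fixed in part by the choice of members and is not read as a result.

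With CGRP, *Nkg7* was the only member tested between genotypes, at a log2 fold change of -1.02 (SE 2.27). By edgeR 0 of 1 member and 0% of 10912 genes were called, 0 of 1 had an unadjusted P under 0.05, beside 7.53% of all genes, and DESeq2 called 0 of 1, beside 1.86%. Its value moved to -10.44 without replicate 1 of *Pac1-/-* with CGRP, since replicate 2 was at 0. *Klrc1* and *Klrd1* were detected in both WT libraries with CGRP and at 0 in both *Pac1-/-* libraries. DESeq2 called both (adjusted P = 0.00308 and 0.00732), and edgeR's quasi-likelihood test did not (adjusted P = 0.552 for each). The rest of their list did not share this direction. Of its 11 genes tested here, 7 had positive log2 fold changes. DESeq2 called 2 of the 11 lower in *Pac1-/-* and 1, the adaptor gene *Tyrobp*, higher, beside 1.86% of all genes. With NMU, *Gzmb* was the only member tested, at 1.28 (SE 2.54). Here edgeR called 0 of 1, beside 0.0282% of all genes, with 0 of 1 at an unadjusted P under 0.05, beside 5.04%, and 0 of 1 called by DESeq2, beside 0.621%. Its direction turned to -6.53 without replicate 1 of *Pac1-/-* with NMU.

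Over all 16 libraries with treatment as a covariate, 5 members were tested for genotype. Of these, *Gzma*, *Klrb1c*, and *Prf1* did not pass the filter within IL-33, CGRP, or NMU alone. They entered through the IL-7 libraries, whose values were used to choose the members. By edgeR 0 of the 5 were called, beside 0.0801% of 14979 genes. At an unadjusted P under 0.05 there were 0, beside 6.15% of all genes, and DESeq2 called 0 members and 0.514% of all genes. The log2 fold changes were 2.19 (SE 1.16) for *Gzma*, -2.15 (SE 1.23) for *Nkg7*, 1.14 (SE 1.97) for *Gzmb*, -1.0005 (SE 1.78) for *Klrb1c*, and 2.60 (SE 1.89) for *Prf1*. *Gzma* was 0.82 without replicate 1 of *Pac1-/-* with IL-33 and 4.59 by DESeq2. *Nkg7* was -1.16 without replicate 1 of WT with NMU and -3.57 without replicate 1 of *Pac1-/-* with CGRP, and *Prf1* was 1.56 without replicate 1 of *Pac1-/-* with IL-7. With no expression filter edgeR called 2 members, *Gzma* (adjusted P = 0.0133) and *Nkg7* (adjusted P = 0.0291), beside 0.193% of 32114 genes. *Gzma* had counts in 5 of the 16 libraries, so its call is not read as a result. *Nkg7* and *Klrb1c*, whose *Pac1-/-* libraries were above the WT libraries with IL-7, thus had negative values over all treatments, and the sign of *Klrb1c* turned when any of 3 CGRP libraries was left out. Of the 6 type 1 chemokine genes, *Ccl5* had a value of -1.58 (SE 0.385) and was called by DESeq2 (adjusted P = 0.00116) and not by edgeR's quasi-likelihood test (adjusted P = 0.354). It was the only 1 of the 6 that DESeq2 called, beside 0.514% of all genes. The list did not share its direction, since 4 of the 6 values were positive and their median was 0.89, beside 0.033 over all genes tested. *Fcer1g*, an NK receptor adaptor gene named after its values were seen, had a value of -3.53 (SE 1.09). DESeq2 called it and edgeR did not. Of the 18 genes of its list tested, 8 had positive values and DESeq2 called 1.

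Finally, CGRP was compared with NMU in 4 libraries each, with genotype as a covariate. *Nkg7* was at 0 to 19.7 CPM with CGRP and at 0 to 7.08 CPM with NMU, so the groups overlapped. Its log2 fold change was 4.46 (SE 2.32, adjusted P = 0.340 by edgeR's quasi-likelihood test), and it was called only when no expression filter was used (adjusted P = 0.0398 in that edgeR test), beside 4.15% of all genes. It ranged from 1.67 without replicate 1 of *Pac1-/-* with CGRP to 8.06 without replicate 1 of WT with NMU. *Gzmb* differed by -1.43 (SE 4.81) and turned direction when any of 3 *Pac1-/-* libraries was left out. Of the 2 members tested edgeR called 0, beside 3.86% of 12834 genes, 0 had an unadjusted P under 0.05, beside 19.4% of all genes, and DESeq2 called 0 members and 13.2% of all genes. *Gzma* had 0 counts in all 8 of these libraries and *Klrb1c* in 7 of them.

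Genes of the other lists were called in this comparison. *Tyrobp*, which encodes the receptor adaptor DAP12, was at 4.27 and 4.60 CPM in WT with CGRP, at 55.1 and 54.3 CPM in *Pac1-/-* with CGRP, and at 0 in all 4 libraries with NMU (adjusted P = 0.00661 by edgeR's quasi-likelihood test). *Cxcr6* was lower with CGRP than with NMU, at 2154 to 3188 against 6858 to 9066 CPM, with a log2 fold change of -1.67 (SE 0.182, adjusted P = 0.00264 by the same edgeR test). Of 17 ILC2 markers, 6 were called higher and 5 lower with CGRP, beside 3.86% of all genes called in either direction. *Areg*, *Il1rl1*, *Rora*, and *Il7r* were higher with CGRP than with NMU by 1.35, 1.14, 1.13, and 1.35 on the log2 scale (SE 0.170, 0.153, 0.143, and 0.182, adjusted P at most 0.00659 by edgeR). The comparison does not show which neuropeptide moved a level. *Il13*, a type 2 cytokine gene, was lower, at 5.03 to 14.6 against 115 to 347 CPM, with a log2 fold change of -4.52 (SE 0.507, adjusted P = 0.00301 by edgeR). *Tnfsf11*, a TNF superfamily ligand gene, was higher with CGRP by 2.31 (SE 0.348, adjusted P = 0.0102 by edgeR). Of the 18 other granule genes, edgeR called none of the 11 tested, beside 3.86% of all genes. At an unadjusted P under 0.05 there were 3, beside 19.4% of all genes, and DESeq2 called 1, *Ctsc*, beside 13.2%.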

How the data were processed

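The 16 libraries were mRNA-Seq of about 500 lung ILC2s each, amplified as full-length cDNA. The deposited table gives unnormalized counts of reads for each Ensembl gene, which the authors made from reads aligned with HISAT2 to mm10 (the genome build in the submitters' processing notes). The counting tool, annotation release, strand, and treatment of duplicates are not given in the sources used here, so duplicate reads may add to a count and intervals or floors cover counting error only. Symbols, exon lengths, and positions came from GENCODE M21 (GRCm38), and 51633 of 51912 identifiers had a symbol. Promoter windows came from RefSeq on GRCm38.

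Groups and replicate numbers came from the sample labels. Fits used R 4.3.3 and edgeR 4.0.16 with TMM scaling, the filterByExpr filter (by group), and quasi-likelihood tests with Benjamini-Hochberg adjustment over all genes tested, on the libraries of each comparison. SEs were the log2 fold change over the square root of the F statistic. A call needed a fold change above 1.5 and an adjusted P under 0.05. DESeq2 1.42.0 was an alternative, beside RLE scaling, library totals, no filter, a mean of at least 10 counts, a replicate block, and leaving out each library. The fits were also run on simulated counts with known changes. Each simulated gene had 1 mean level apart from the added change. Members such as *Gzma*, present in 1 treatment and at 0 in most other libraries, differ from that, so the run does not bear on their fits over several treatments. Transcripts were compared with BLAST 2.17.0. A prior count of 2 entered the log2 CPM of the profile ranking.

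The members and the gene lists were chosen with earlier results of these data known. All 10 members are named, with up to 3 genes of each other list by mean CPM, genes called in a tested comparison, the 5 genes of most similar profile, and *Gata3*, *Il1rl1*, and *Rora*; *Klrk1*, *Klra4*, *Klra9*, *Cxcr3*, *Fcer1g*, *Cd3d*, *Cd3e*, *Cd8b1*, *Trac*, *Tcrg-C1*, *Ctsc*, and the genes at or near 0 were named after their values were seen. Results that need 1 further gene are not reported here.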

Additional observations from a re-analysis of the deposited data

Results flagged for a closer look

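In 10 of 23 groups of 4 libraries, 1 library stood apart from the other 3 by more than Dixon's 95% critical value. Chance alone gives about 1 in 20 such groups, and levels at 0 in the other libraries make the criterion easy to meet. With IL-7, *Ifng* was at 1.74 CPM in replicate 2 of WT and *Ncr1* at 2.70 CPM in replicate 1 of *Pac1-/-*, each with 0 in the other 3 libraries. *Prf1* was at 5.92 CPM in replicate 1 of *Pac1-/-* with IL-7, against 0.950 CPM or less in the rest. With IL-33, replicate 1 of *Pac1-/-* stood apart for both *Gzma* (4.49 CPM) and *Gzmb* (20.02 CPM). With CGRP, *Klrb1c* was at 4.36 CPM in replicate 1 of WT, *Gzmb* at 18.2 CPM in replicate 2 of WT, and *Nkg7* at 0 in replicate 2 of *Pac1-/-* while the other 3 libraries were at 17.3 to 19.7 CPM. With NMU, replicate 1 of WT stood apart for *Nkg7* (7.08 CPM) and *Ncr1* (0.615 CPM).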

How the results depend on the processing

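With no expression filter, edgeR called 2 members for genotype over all libraries (*Gzma*, log2 fold change 2.32, and *Nkg7*, -2.17), 1 for CGRP against NMU (*Nkg7*), and 2 for the interaction (*Gzma* and *Nkg7*), where the main count was 0 in each. DESeq2 called 1 member in the interaction (*Nkg7*). Leaving out 1 library gave 0 to 1 members called for genotype with IL-33 and 0 to 2 for the interaction. RLE scaling, library totals, and the minimum mean of 10 counts called 0 members in every tested comparison. The cause of these moves was not tested. Leaving out 1 library turned the direction of *Gzmb* for genotype over all libraries (-0.86 to 1.94), genotype with NMU (-6.53 to 7.89), CGRP against NMU (-4.76 to 2.52), and the interaction (-6.39 to 8.60), of *Klrb1c* for genotype over all libraries (-2.32 to 1.10), and of *Gzma* (-0.86 to 8.03) and *Prf1* (-2.56 to 3.53) for the interaction. In the descriptions against IL-33, it turned *Nkg7* with CGRP (-0.71 to 2.47) and *Gzmb* with CGRP (-6.23 to 4.42) and with NMU (-2.09 to 3.41). *Gzmb* also turned with library totals for NMU (-0.0089). The summed level with IL-7 stayed between 243 and 303 CPM when 1 library was left out.

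The replicate block called 0 members in every tested comparison, as the fits without it did, and gave 0.86 for *Gzma* between genotypes with IL-7 (SE 0.218). It turned *Gzmb* for CGRP against IL-33 from -1.14 to 0.25. Same-numbered libraries did not deviate together (r = -0.064 to 0.039 over 28 pairs of groups, none over 0.1). This gave no sign that the numbers pair the samples, but noise between libraries could hide a pairing, so it was not excluded. With 2 libraries a group, and most members near the floor of 3 counts, differences in *Prf1*, *Eomes*, *Ncr1*, *Ifng*, *Gzmc*, and *Tbx21* were not measurable at this depth.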
